A study of Rattus norvegicus with 13 samples.

Results

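Frontal cortex was compared between 2 groups of rats that had received no head trauma: 4 sham samples of lateral fluid percussion and 3 sham samples of rotational trauma, together 7 of the 13 samples of the series. The members were taken by their titles alone. All were from male Sprague–Dawley rats, with tissue taken 1 month after surgery. Percussion sham rats underwent the anaesthesia and surgery of the lateral fluid percussion model, in which a fluid pulse strikes the exposed dura, without the pulse. Rotational sham rats underwent the anaesthesia and surgery of the rotational model, in which the head is rapidly accelerated, without the acceleration. The 6 other samples, 3 with percussion trauma and 3 with rotational trauma, are used below as a second comparison of the models, since no sample is in both. The labels give a replicate number but do not say outright that the samples of a group are separate animals. They were treated as replicates. P-values for genes rest on the spread within groups, pooled over all 13 samples.

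A sham group is the reference against which the injury of its own model is read, and a comparison of sham groups holds no trauma but can hold surgery, handling, sampling and the measurement itself. Cortical transcripts follow the state of the animal as well as its tissue. Immediate early genes are transcribed within minutes of neuronal firing through the transcription factors CREB and SRF, clock genes follow the time of day, and glucocorticoid-induced genes follow circulating stress hormone. Genes of neighbouring regions can vary with how the block of tissue was cut, which was not tested here.

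Each array of the 7 gave 58717 spots that were not controls. Rotational samples, sham and trauma, shared 1 slide and 1 scan, and percussion samples shared the other. Surgery, time of sampling and slide therefore cannot be told apart for any difference given here. Within the shams the slide column was also split by model, since rotational sham lay in column 1 and percussion sham in column 2. In the trauma arrays the columns were the other way round. The share of spots well above background was 73.1% to 74.1% in rotational sham and 67.6% to 69.4% in percussion sham, lower by 4.86 percentage points on average (two-sided exact permutation test, p = 0.0286, the smallest that 3 against 4 allows, and 0.0571 when adjusted over 6 array measures). Among the trauma arrays it was lower on the rotational side, at 67.0% to 72.5% against 72.7% to 73.8%. The slope of the spike-in signals did not differ detectably between the sham groups (0.999 and 0.999, exact permutation p = 0.914). Scaled signals are log2 values relative to the upper quartile of each array, so 0 is the array's upper quartile, and differences below are percussion minus rotational on this log2 scale.

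Neurod2 and Bcl11b, transcription factors of cortical projection neurons, were above background on all 7 sham arrays, and their differences were 0.07 (adjusted p = 0.53) and 0.05 (adjusted p = 0.814). Neurod2 was chosen after its value was seen, and other genes of the cortical layers, given below, were called in both directions. These 2 genes therefore do not show that the tissue of the groups was alike. Across genes, which are not independent replicates, the correlation was 0.989 to 0.997 within a group and 0.975 to 0.988 between the sham groups. By limma with Benjamini-Hochberg adjustment and a threshold of 0.05, 4060 of 17270 genes (23.5%) were called different in percussion sham. Percussion sham was higher in 1643 of them (9.51%) and lower in 2417 (14.0%), and 40.5% of the calls were therefore higher. Counts in the gene lists below are to be read beside the shares of 9.51% and 14.0%. With a normexp background correction the split was 1225 higher and 3458 lower, or 26.2% higher. The median of the genes called higher was 0.55 and that of the genes called lower was −0.45, with −0.06 over all genes. A difference of at least 2-fold was reached by 345 called genes that were higher and 180 that were lower. The 3 and 4 samples of the groups did not overlap in 41.5% of all genes. They did not overlap in 1613 of the 1643 genes called higher and 2362 of the 2417 called lower, so a lack of overlap adds little to a call. Leaving out rotational sham 1, 2 or 3 left 2267, 2460 or 1832 calls, so the number of calls depends on each of these 3 arrays.

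The same contrast in the trauma samples gave 1096 calls (6.35%), with 801 higher (4.64%) and 295 lower (1.71%) on the percussion side. Genes called higher in both numbered 632 (3.66%) and genes called lower in both 207 (1.20%), which is 20.7% of the sham calls and 76.6% of the trauma calls, and 4 genes were called in opposite directions. The 2 sets of samples share slides and models but no sample. Of the genes called higher in percussion sham, 95.9% were also positive between the trauma groups, with a median of 0.42. Of the genes called lower, 87.3% were negative there, with a median of −0.19. The share that also passed in the trauma samples was 38.5% on the higher side and 8.56% on the lower side. Across the 17270 genes the differences of the 2 sets correlated at r = 0.695, given as a description.

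Detection was unequal, mostly on the lower side. Of the 17270 genes, 15551 were above background on all 7 sham arrays, and 1589 of these were called higher and 2117 lower. Of the other 1719, 1670 entered the fit because they were above background on every array of rotational sham alone. The remaining 49 entered through percussion sham alone. The 1719 genes together had 54 higher and 300 lower calls, which were unequal by the way these genes were chosen. The same entry holds for each gene below that is lower in percussion sham and not above background on every percussion sham array. Conversely, each gene below that is higher in percussion sham and not above background on every rotational sham array entered through percussion sham alone. That entry favours higher calls. Npas4, S100a5, Fam111a, Plekha7, Lipogenin and Ptk6 are among these genes.

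**Figure D1:**
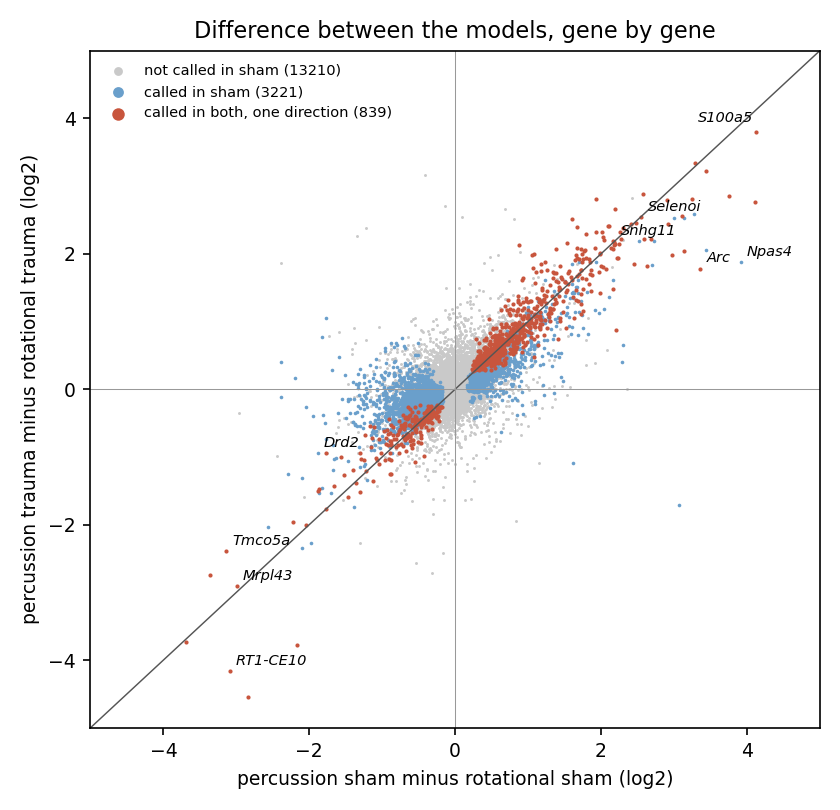
Each point is 1 of 17270 genes, with its log2 difference between percussion sham and rotational sham on the x axis and between percussion trauma and rotational trauma on the y axis; the line marks equal differences. The 839 red points passed in both sets of samples in 1 direction; Selenoi lies on the line at 2.56 and 2.55, and Arc lies below it at 3.36 and 1.78.

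Many activity-regulated genes were higher in percussion sham. Of 33 measured members of the immediate early list, 14 were called higher and 1 lower, with a median of 0.59 against −0.06 over all genes. In the trauma samples 9 members were called higher and 0 lower, with a median of 0.17. The difference was carried by transcription factors (Fos, Junb, Egr1, Egr2, Nr4a1, Nr4a3, Npas4), by the synaptic gene Arc, and by feedback regulators of kinase signalling (Dusp1, Dusp5, Dusp6, Trib1). Promoters are shown for 3 of these genes because they hold binding motifs of the activity-dependent factors. The 150 bases before the RefSeq gene start (build GRCr8) are given, with motif letters in capitals: the CArG box bound by SRF in Egr2 and Dusp5, and the CREB motif TGACGTCA and the E-box CACGTG in Dusp1.
Egr2, chr20:21054442-21054591, minus strand: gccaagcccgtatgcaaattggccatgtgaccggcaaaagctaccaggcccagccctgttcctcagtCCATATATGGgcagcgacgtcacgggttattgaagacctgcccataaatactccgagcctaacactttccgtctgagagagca
Dusp5, chr1:262543624-262543773, plus strand: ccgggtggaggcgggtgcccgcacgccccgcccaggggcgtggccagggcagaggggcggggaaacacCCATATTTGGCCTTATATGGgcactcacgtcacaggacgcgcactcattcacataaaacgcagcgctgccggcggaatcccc
Dusp1, chr10:17184703-17184852, plus strand: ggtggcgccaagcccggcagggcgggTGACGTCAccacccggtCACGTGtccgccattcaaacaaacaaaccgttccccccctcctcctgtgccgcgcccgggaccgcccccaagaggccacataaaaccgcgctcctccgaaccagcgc

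In a search of both strands over 250 bases before the start, the CArG box occurred in 501 of 33469 RefSeq promoters (1.50%), TGACGTCA in 531 (1.59%) and CACGTG in 1872 (5.59%). Of the 25 immediate early genes with an entry, 3 held a CArG box and 4 held TGACGTCA. The 3 with a CArG box, Egr1, Egr2 and Dusp5, were all called higher, and of the 4 with TGACGTCA only Dusp1 was. Of all 25, 10 were called higher, and a link between motif and call was not tested. Arc, Fos, Nr4a3 and Trib1 had no promoter entry. Dusp5 holds 2 CArG boxes, which begin 82 and 72 bases before the start and adjoin each other. A match describes these letters and is no evidence of binding.

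Arc encodes a cytoskeletal protein of dendrites whose transcript is induced by synaptic activity. Its scaled signal was 0.26, −0.02 and 0.01 in rotational sham 1 to 3 and 3.83, 3.62, 3.15 and 3.19 in percussion sham 1 to 4 (log2 difference 3.36, SE 0.23, adjusted p = 4.23e-05). The groups did not overlap, and the lowest percussion sham sample stood well above the highest rotational one. In the trauma samples Arc was 0.46, 0.80 and 0.48 after rotation and 2.94, 2.05 and 2.10 after percussion (1.78, adjusted p = 0.003). Percussion trauma thus lay below all 4 percussion shams, although the change in the difference did not pass (adjusted p = 0.205). The Arc probe lies on chromosome 7 from 112772025 to 112772084 (rn4, the build of the array files).

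Npas4, a transcription factor induced by calcium entry in neurons, was not above background on any rotational sham array (0 of 3) and was above it on all 4 percussion sham arrays. It was at least 11.9-fold higher in percussion sham (adjusted p = 0.00101). It entered the fit through percussion sham alone, which favours a higher call. Within percussion sham the signal was unequal, at −3.40, −4.05, −5.46 and −5.54. Its call was lost with a normexp background correction and in the deposited table, where the differences were smaller. Fos, the founding member of this gene class, was −3.14, −4.18 and −3.25 in rotational sham and −0.85, −1.09, −1.83 and −2.21 in percussion sham (2.03, SE 0.39, adjusted p = 0.00558). Like Npas4, it was highest in percussion sham 1 and 2. Between the trauma groups Fos differed by 1.80 (adjusted p = 0.0287).

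The orphan nuclear receptor gene Nr4a1 was 0.52, 0.73 and 0.72 in rotational sham and 3.06, 2.65, 2.43 and 2.43 in percussion sham (1.99, SE 0.20, adjusted p = 0.000529). Its relative Nr4a3 differed by 0.87 (adjusted p = 0.00948). Junb, an AP-1 subunit, was 1.27 to 1.40 in rotational sham and 2.48 to 3.40 in percussion sham (1.63, adjusted p = 0.00215). The zinc finger factors Egr1 and Egr2 differed by 0.79 (adjusted p = 0.0124) and 1.46 (adjusted p = 0.0317). None of these 5 genes overlapped between the sham groups, as was so for 1613 of the 1643 genes called higher. Nr4a1, Nr4a3, Junb and Egr1 also passed between the trauma groups, with differences of 1.43, 0.99, 1.05 and 0.78.

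Regulators that shut down kinase signalling followed. Dusp5 and Dusp6 encode phosphatases of MAP kinases and differed by 1.66 (SE 0.20, adjusted p = 0.000876) and 1.01 (SE 0.14, adjusted p = 0.00157). Trib1, a pseudokinase gene, differed by 1.73 (adjusted p = 0.000556). All 3 passed between the trauma groups too, with 1.32, 0.93 and 1.11. Dusp1, a phosphatase gene that glucocorticoids also induce, behaved otherwise. It was −3.48, −3.68 and −3.48 in rotational sham and −2.31, −2.47, −2.84 and −2.86 in percussion sham (0.93, adjusted p = 0.00566), but −2.98, −2.84 and −2.97 after rotational trauma and −3.19, −2.97 and −3.72 after percussion trauma, where the difference was −0.36 (adjusted p = 0.258). The change in its difference did not pass (adjusted p = 0.175).

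Other members set limits to the pattern. The AP-1 gene Jun differed by 0.00 (adjusted p = 0.99) and the neurotrophin gene Bdnf by −0.14 (adjusted p = 0.527). Rheb, a GTPase gene, was called lower by a small amount (−0.23, adjusted p = 0.0259), a call lost under median, quantile and trimmed mean scaling and in the deposited table. Ccn1, which encodes a matrix protein, differed by 2.04 (adjusted p = 0.0393) but overlapped between the groups, with −1.62, −2.51, −3.75 and −4.92 in percussion sham. The calls of 4 members were lost without any 1 of the 3 rotational sham arrays. Egr2 was also lost without percussion sham 1, 2 or 3 (1.30 to 1.58), Ccn1 without percussion sham 1 or 2 or rotational trauma 3 (1.52 to 2.34), Ier5 without percussion sham 2, 3 or 4 (0.39 to 0.44) and Rheb without percussion sham 1 (−0.25 to −0.19). Without percussion trauma 3 the list had 2 lower calls. Ccn1 was not called with a normexp background correction or in a fit of the 7 sham arrays alone, nor Ier5 under median scaling or with the mean over its probes. Beyond Arc, Npas4, Ccn1 and Fos, the members named here were chosen after their values were seen.

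**Figure D2:**
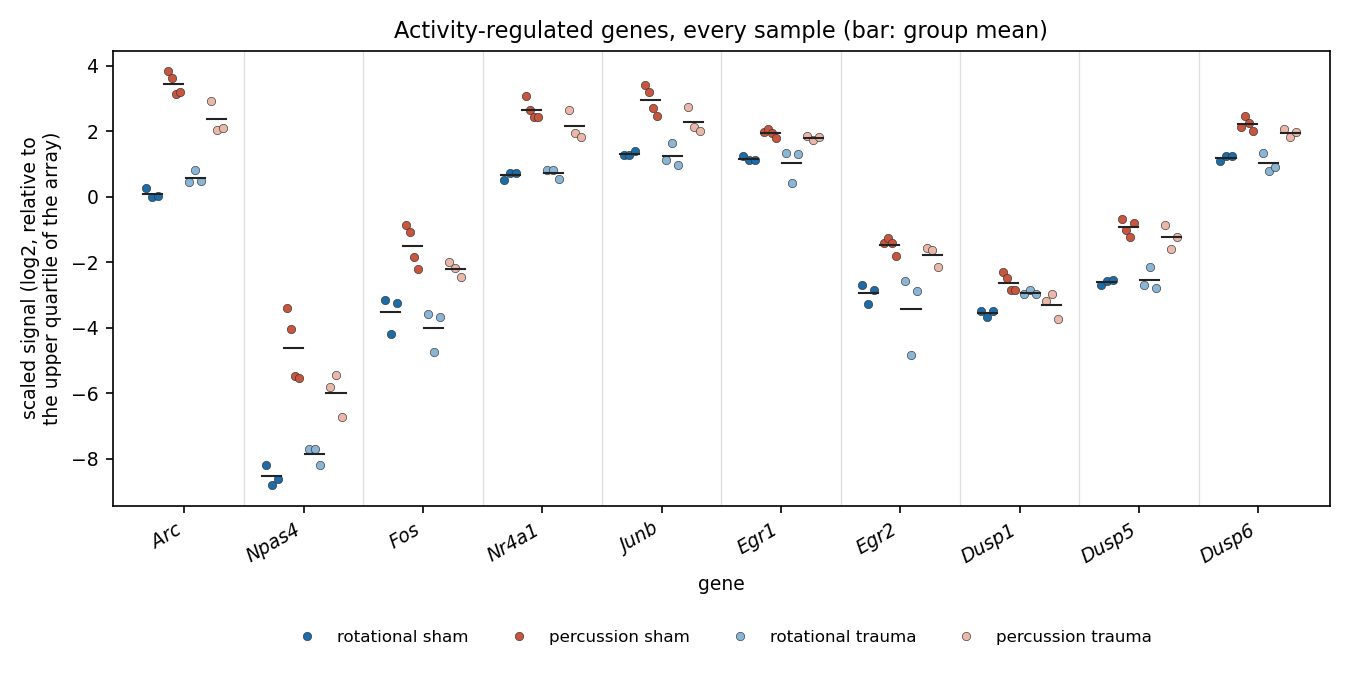
Scaled log2 signal of 10 activity-regulated genes (y axis, relative to the array's upper quartile) in every sample, with a bar at each group mean; dark points are the sham groups and light points the trauma groups. Arc in the 4 percussion shams sits between 3.15 and 3.83, above the 3 rotational shams at −0.02 to 0.26, while Dusp1 is separated in the shams and overlaps in the trauma groups.

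The signalling genes upstream were called in both directions. Of 31 measured members of the activity signalling list (receptors, kinases and transcription factors that connect firing to transcription), 1 was called higher and 8 lower, with a median of −0.07. The NMDA receptor subunit gene Grin2b was −1.41, −1.57 and −1.61 in rotational sham and −2.26, −2.15, −2.22 and −2.47 in percussion sham (−0.74, SE 0.10, adjusted p = 0.00151), so all 4 percussion samples were lower. Adcy1, which encodes a calcium-stimulated adenylyl cyclase, differed by −0.64 (adjusted p = 0.0388). Creb1, the gene of CREB itself, was the member called higher (0.58, adjusted p = 0.0156), and it differed by 0.55 between the trauma groups (adjusted p = 0.057). With quantile normalisation the list had 5 higher and 6 lower calls, with array weights 5 and 9, and 3 and 7 in the deposited table. Without rotational sham 1, 2 or 3 it had 2, 4 or 3 lower calls, and without percussion sham 1, 2, 3 or 4 it had 4, 5, 4 or 5. Without percussion trauma 3 or percussion sham 3 it had 2 higher calls. The call of Creb1 was lost without rotational sham 2 or 3 (0.48 to 0.57), and that of Adcy1 without any 1 of the 7 sham arrays (−0.73 to −0.56).

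Among clock genes, 2 of 22 measured members were called higher and 3 lower (9.09% and 13.6%, beside 9.51% and 14.0% of all genes). Per2, a light- and glucocorticoid-responsive repressor of the clock, was −2.56, −2.13 and −2.40 in rotational sham and −1.33, −1.48, −1.20 and −1.08 in percussion sham (1.09, SE 0.12, adjusted p = 0.000654). The trauma groups repeated this closely, with −2.40, −2.09 and −2.36 after rotation and −1.38, −1.37 and −1.36 after percussion (0.92, adjusted p = 0.00333). Bhlhe40, a repressor induced by activity as well as by the clock, differed by 0.93 between the shams (adjusted p = 0.00296) and 1.04 between the trauma groups (adjusted p = 0.00635). All 7 percussion samples were above all 6 rotational ones for both genes. The lower calls were Cry2, the partner of the period proteins (−0.44, adjusted p = 0.00502), Npas2, a paralogue of Clock (−0.33, adjusted p = 0.00425), and the repressor gene Nr1d1 (−0.41, adjusted p = 0.0432). The call of Nr1d1 was lost without any 1 of the 7 sham arrays and without rotational trauma 1 or 2 (−0.44 to −0.38), and under trimmed mean scaling. Without rotational trauma 2 or 3 the list had 4 higher calls.

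Other core clock genes lay on both sides of 0. Per1 differed by 0.30 (adjusted p = 0.251), and the output gene Dbp by 0.47 (adjusted p = 0.0652), with 0.45 and 0.43 at its other probes. Bmal1, which drives the period genes, differed by −0.26 (adjusted p = 0.085). Dbp was called under 7 and Bmal1 under 5 of the 25 alternatives (0.40 to 0.59 and −0.41 to −0.22 over all of them). The median of the list was −0.04, and it was 0.02 with quantile normalisation and 0.01 in the deposited table, so its sign depends on the scaling. Of 18 clock genes with a promoter entry, 2 were called higher. The E-box CACGTG, through which the clock factors act, was held by 4 of the 18, and Bhlhe40 was the one of these 4 called higher. The hour at which animals were killed is not given in the sources used here.

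Some glucocorticoid-induced genes were higher in percussion sham. Of 18 measured members, 6 were called higher and 0 lower (median 0.25; 6 and 3 with a normexp background correction, 8 and 2 with array weights), while between the trauma groups 0 were called higher and 1 lower (median −0.16). Ddit4, an inhibitor of mTOR signalling induced by stress hormones, was 0.62, 1.03 and 0.84 in rotational sham and 1.89, 1.99, 2.10 and 2.23 in percussion sham (1.22, SE 0.16, adjusted p = 0.00132). It was 1.58, 2.00 and 1.51 after rotational trauma and 1.77, 1.79 and 1.26 after percussion trauma (−0.09, adjusted p = 0.774). The 3 rotational shams thus lay below all 10 other samples. The kinase gene Sgk1 gave the same picture, with −0.97, −1.0 and −0.75 in rotational sham and −0.24, −0.03, 0.08 and −0.02 in percussion sham (0.85, SE 0.17, adjusted p = 0.00705). Its values were −0.28, 0.01 and 0.02 after rotational trauma and −0.24, 0.17 and −0.68 after percussion trauma.

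The other 4 called members were Arrdc3 (0.82, adjusted p = 0.00317), an arrestin-domain gene, Tsc22d3 (0.55, adjusted p = 0.0241), which encodes the glucocorticoid-induced leucine zipper, the EGF receptor inhibitor gene Errfi1 (0.49, adjusted p = 0.0117) and the transcription factor gene Klf9 (0.35, adjusted p = 0.0132). Between the trauma groups these 4 differed by 0.33, −0.10, −0.11 and −0.13, none of which passed. The change in the difference did not pass for any of the 6 genes (adjusted p from 0.16 for Ddit4 to 0.536 for Arrdc3). Fkbp5, which is among the most used readouts of the glucocorticoid receptor, differed by 0.05 (adjusted p = 0.782), and the receptor gene Nr3c1 by −0.26 (adjusted p = 0.0667). A second Nr3c1 probe, above background on every array, gave 0.19. The call of Tsc22d3 was lost without rotational sham 1 or 2 or percussion sham 3 or 4 (0.46 to 0.51), and that of Klf9 without rotational sham 3 (0.34), both also under median scaling.

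Some genes separated the models almost without spread, in sham and trauma samples alike. Selenoi encodes the enzyme that joins ethanolamine phosphate to diacylglycerol in phospholipid synthesis. It was −0.36, −0.44 and −0.41 in rotational sham and 2.10, 2.11, 2.30 and 2.09 in percussion sham (SE 0.07, adjusted p = 8.04e-09), and −0.40, −0.49 and −0.46 against 2.00, 2.11 and 2.17 in the trauma groups. The 6 rotational samples thus lay within a narrow range, as did the 7 percussion samples, with a wide gap between them. Its probe lies on chromosome 6 from 26058655 to 26058714. No other member of the phospholipid synthesis list came near this difference: of 20 measured, 2 were called higher and 2 lower, with a median of −0.05. The choline kinase gene Chka was the other higher call (0.54, adjusted p = 0.00303), and without rotational sham 1, 2 or 3, rotational trauma 3 or percussion sham 1, 2 or 4 the list had 1 lower call. A list of 18 other selenoproteins, the class to which the Selenoi product belongs, had 4 called lower and 1 higher, Selenom (0.38, adjusted p = 0.0254), whose call was lost without any 1 rotational sham array and without percussion sham 1, 2 or 4. The lower calls numbered 2 without rotational sham 3 and 7 without percussion trauma 3.

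Snhg11, a long non-coding RNA of neurons, was 2.07, 2.08 and 2.11 in rotational sham and 4.84, 3.94, 4.16 and 4.15 in percussion sham (2.18, adjusted p = 0.000264). A second Snhg11 probe gave 2.20. Between the trauma groups the difference was 2.18 as well (adjusted p = 0.000775). The kinase gene Stk38 differed by 1.16 in the shams and 1.04 in the trauma samples. Gnb3, a G protein subunit gene of photoreceptors, differed by 3.29 in the shams, was at least 6.62-fold higher in percussion trauma and was above background on all 7 percussion arrays and on 1 of the 6 rotational ones.

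On the lower side the clearest case was Mrpl43, a gene of the mitochondrial ribosome, which was −0.39, 0.46 and 0.22 in rotational sham and −3.30, −2.82, −2.95 and −2.49 in percussion sham (−2.99, SE 0.28, adjusted p = 0.000431). It was −0.45, 0.38 and 0.37 against −3.13, −2.94 and −2.35 in the trauma groups. The groups were far apart in both sets. Tmco5a differed by −3.15 (adjusted p = 9.26e-05) and −2.39, and Nat8f1, of an acetyltransferase family, by −1.47 (adjusted p = 3.17e-05) and −1.59. Fam163a was 0.82 to 0.85 in rotational sham and −0.24 to −0.15 in percussion sham (−1.02, adjusted p = 6.92e-05), with −0.94 between the trauma groups. A second Fam163a probe, above background on no rotational sham array, gave 0.29.

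An MHC class I gene also separated the models. RT1-CE10 was −3.38, −3.51 and −3.51 in rotational sham and −6.10, −6.82, −5.43 and −7.88 in percussion sham (−3.09, adjusted p = 0.00251), and it was above background on 2 of the 4. It was above background on 0 of 3 percussion trauma arrays, at least 13.7-fold lower than after rotation (adjusted p = 0.00208). Its probe lies on chromosome 20 from 3469045 to 3469104, within the rat MHC. RT1 genes are near-identical copies, so these signals cannot be assigned to 1 gene with certainty. RT1-S3 differed the other way, by 0.85 (adjusted p = 0.0116) and 0.91 between the trauma groups (adjusted p = 0.0284).

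**Figure D3:**
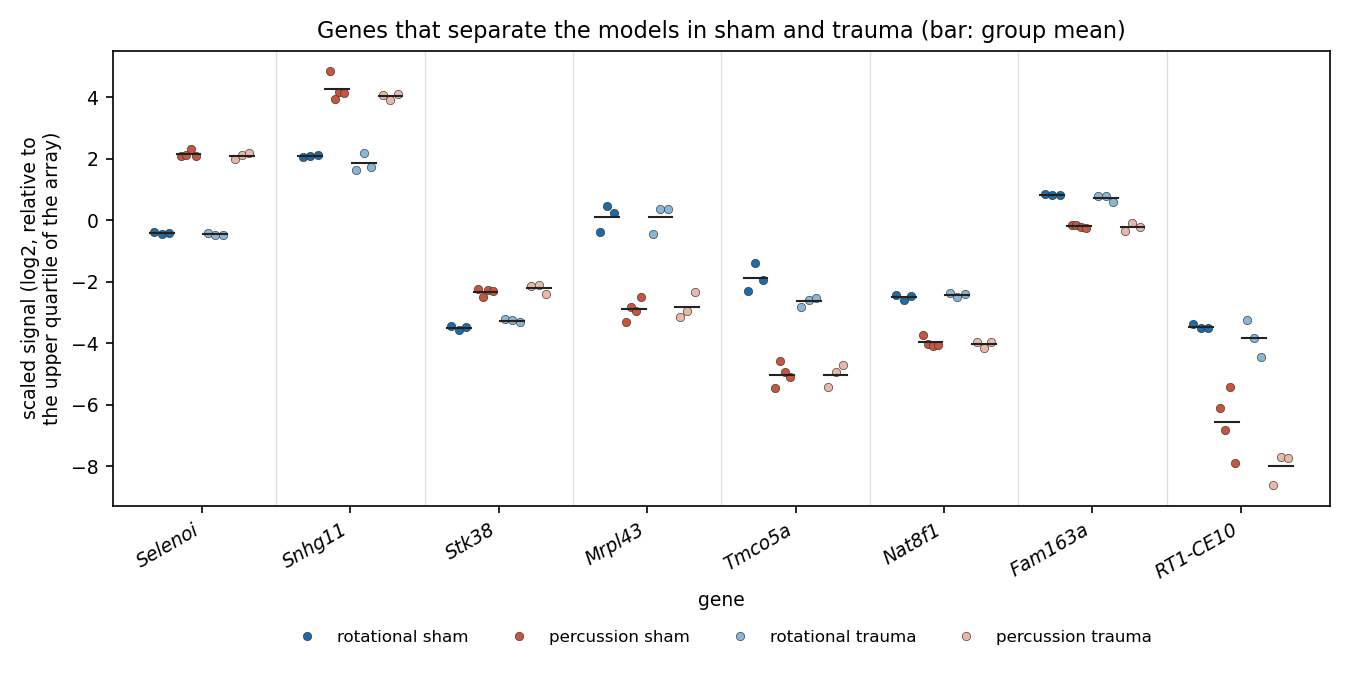
Scaled log2 signal (y axis, relative to the array's upper quartile) of 8 genes in every sample, with a bar at each group mean. The sham and trauma samples of a model share a level: Selenoi is near −0.4 in all 6 rotational samples and between 2.00 and 2.30 in all 7 percussion samples, and Mrpl43 is between −0.45 and 0.46 against −3.30 and −2.35.

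Several genes typical of the striatum, which lies beneath the frontal cortex, were lower in percussion sham. Of 15 measured members, 7 were called lower and 0 higher, with a median of −0.85, and between the trauma groups the median was −0.39 with 1 lower call. In bulk tissue, fewer cells of a type and less RNA per cell cannot be told apart. Drd2, the D2 dopamine receptor gene, was 0.84, −0.83 and 0.59 in rotational sham and −1.85, −1.85, −1.38 and −1.64 in percussion sham (−1.88, SE 0.34, adjusted p = 0.00458). Pdyn, the prodynorphin gene, was 1.22, 0.10 and 0.92 against −0.94, −0.66, −0.36 and −0.67 (−1.40, SE 0.25, adjusted p = 0.00402). Both were lower in all 4 percussion shams than in any rotational sham, and rotational sham 2 stood between the groups.

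That array was the lowest of its group in further members. Adora2a, the adenosine receptor gene of striatopallidal neurons, was −0.70, −4.02 and −1.16 in rotational sham and −3.51, −3.61, −3.71 and −3.57 in percussion sham, so that rotational sham 2 lay below all 4 (−1.64, adjusted p = 0.0808). Rgs9 was 0.84, −1.73 and 0.40 in rotational sham, and Drd1 −3.94, −6.42 and −4.69, while Drd1 was above background on none of the 4 percussion shams. Rotational sham 2 also differed from its group in the choroid plexus marker Ttr, at −7.31 against −0.93 and −2.37. The mean centred signal of the striatal list was 1.1, −0.18 and 0.75 in rotational sham and −0.28 to −0.26 in percussion sham. Without rotational sham 2 the list had 14 lower calls of 17 measured, and without rotational sham 1 or 3 it had 2 of 15, with medians of −1.13, −0.47 and −0.75. Without percussion sham 1 or 2 it had 4. The call of Ppp1r1b, the DARPP-32 gene (−0.85, adjusted p = 0.0265), was lost without rotational sham 1 or 3 or percussion sham 1 or 2 (−0.86 to −0.63).

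Some genes associated with the olfactory bulb and cerebellum were higher in percussion sham. Of 11 measured members of the olfactory bulb and cerebellum list, 3 were called higher and 1 lower. These are 27.3% and 9.09%, beside 9.51% and 14.0% of all genes. The median was 0.48 in the shams and 0.41 between the trauma groups. Doc2g, a calcium-sensor gene of the bulb, was −3.53, −4.07 and −3.74 in rotational sham and −1.41, −2.24, −3.11 and −1.96 in percussion sham (1.60, adjusted p = 0.0258). Th, the tyrosine hydroxylase gene of dopamine neurons, was −1.42, −1.43 and −1.46 against 0.84, −0.42, −1.31 and −0.03 (1.20, adjusted p = 0.055). Calb2, which encodes calretinin, was −0.65 to −0.53 in rotational sham and 1.29, 0.28, −0.32 and 0.48 in percussion sham (1.01, adjusted p = 0.0767). In each of these genes percussion sham 1 was highest and percussion sham 3 lowest. Car8, a Purkinje cell gene, was the lower call (−0.91, adjusted p = 0.00247), and Pcp2, another, was called higher (0.48, adjusted p = 0.0373) but stood at −0.05 with a normexp background correction and was not called in the deposited table or with a robust, trended prior. The call of Doc2g was lost without rotational sham 1, 2 or 3 or percussion sham 1 or 4 (1.34 to 1.72), and that of Pcp2 without rotational sham 1, 2 or 3 or percussion sham 1, 2 or 4 (0.39 to 0.50). Without percussion sham 3 the list had 5 higher calls, and without any other sham array except percussion sham 2 it had 1.

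Several of the largest differences of the comparison followed the same order of samples. S100a5, a calcium-binding protein gene known from the olfactory system, was −6.27, −6.68 and −6.35 in rotational sham and −0.91, −2.34, −4.82 and −1.15 in percussion sham (4.13, SE 0.93, adjusted p = 0.0112). After rotational trauma it was −6.04, −7.01 and −3.70, and after percussion trauma −1.21, −2.65 and −1.49 (3.80, adjusted p = 0.0467). A second probe gave 3.79 and 3.48. Itga10, an integrin gene, was −5.73, −6.68 and −6.06 against −1.21, −2.54, −4.34 and −2.75 (3.45, adjusted p = 0.00506), although its second probe, above background on no rotational sham array, gave 0.94. Klhl14 differed by 3.44 (adjusted p = 0.00546), Spp1, the osteopontin gene, by 3.27 (adjusted p = 0.0209), Trh, the thyrotropin-releasing hormone gene, by 3.00 (adjusted p = 0.0224) and Trdn, the triadin gene, by 2.41 (adjusted p = 0.0153). In all 6 genes percussion sham 1 was the highest sham sample and percussion sham 3 the lowest of its group, and rotational trauma 3 was the highest of its group. The mean centred signal of the olfactory bulb list had its lowest percussion sham value in the same array (0.50, 0.15, −0.23 and 0.14) and its highest rotational trauma value in rotational trauma 3 (−0.04, against −0.23 and −0.31). The calls of Spp1 and Trh were lost without rotational sham 2 or 3 or percussion sham 1 (2.93 to 3.24 and 2.35 to 3.08), and that of Trdn without rotational sham 2 or 3 (2.30 to 2.44). Trh and Trdn were chosen after their values were seen, so their order adds nothing to the pattern. Among other large differences, Npas4 did not have this order in percussion sham. Arc had it there but not after rotational trauma.

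**Figure D4:**
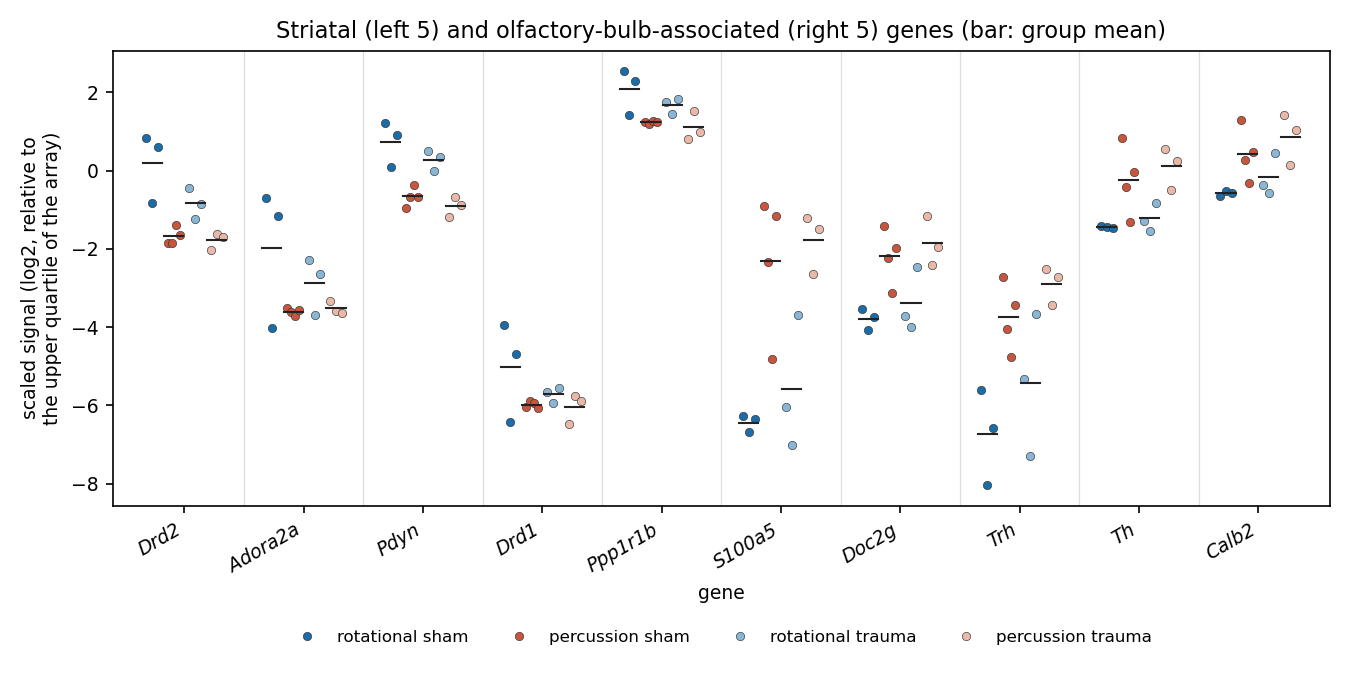
Scaled log2 signal (y axis, relative to the array's upper quartile) of 5 striatal and 5 olfactory-bulb-associated genes in every sample, with a bar at each group mean. Rotational sham 2 lies with the percussion samples for Adora2a (−4.02) and Drd1 (−6.42), and the percussion shams spread widely for S100a5, from −4.82 to −0.91.

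Lists of the cortical layers were split. Shares called higher and lower were 14.3% and 14.3% in the upper layers, and 5% and 15% in the deep layers. Over all genes they were 9.51% and 14.0%, so the lower shares lay near that of all genes. In the upper layers 2 of 14 were called higher, led by Cux1 (0.51, adjusted p = 0.00608), which was not called with the mean over its probes, and 2 lower, led by Lamp5 (−0.55, adjusted p = 0.0276). The other Cux1 probes, above background on every array, gave −0.56 and 1.16, so the direction of the gene depends on the probe. The call of Lamp5 was lost without any rotational sham array or percussion sham 1 (−0.61 to −0.44). Without rotational sham 1, 2 or 3 the list had 1, 0 or 0 lower calls and without percussion sham 1 it had 1, and without rotational sham 2 or 3 or percussion sham 1, 2 or 4 it had 1 higher call. In the deep layers 1 of 20 was called higher, Ccn2 of the subplate (0.92, adjusted p = 0.00206), and 3 lower, led by Tbr1 (−0.63, adjusted p = 0.0174), whose call was lost without rotational sham 2 or 3 (−0.65 to −0.57). Without rotational sham 3 this list had 1 lower call, and without rotational trauma 2 it had 2 higher ones. In the thalamus list 1 of 11 was called (2 without percussion sham 3), Slc17a6, the vesicular glutamate transporter of subcortical neurons, at −1.81, −2.11 and −1.72 in rotational sham and −0.61, −0.72, −1.22 and −0.78 in percussion sham (1.05, adjusted p = 0.00214). Choroid plexus and ependyma had 0 of 7 called in either direction.

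Astrocyte genes that were called were lower in percussion sham. Of 17 general astrocyte markers, 7 were called lower and 0 higher, with a median of −0.21. Fgfr3, a growth factor receptor of astrocytes, was −0.02, 0.13 and 0.09 in rotational sham and −0.47, −0.57, −0.45 and −0.37 in percussion sham (−0.53, SE 0.08, adjusted p = 0.00239). The glutamine synthetase gene Glul was 2.21, 1.93 and 1.92 against 1.38, 1.66, 1.50 and 1.62 (−0.48, adjusted p = 0.00581). Between the trauma groups these 2 differed by 0.05 and −0.32, and none of the 17 markers passed in either direction. Aqp4, the water channel of astrocyte endfeet, differed by −0.15 (adjusted p = 0.363) at its brightest probe and by 0.30 and 0.58 at its other probes, and the reactive marker Gfap by −0.47 (adjusted p = 0.29). Without rotational sham 1, 2 or 3 the lower calls numbered 3, 4 or 2, and without percussion sham 1 or 4, or in the deposited table, they numbered 4.

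Microglial genes were mixed. Of 19 markers 4 were called lower and 1 higher, with a median of 0.00. The receptor gene Gpr34 was −0.04, 0.03 and −0.01 in rotational sham and −0.62, −0.44, −0.60 and −0.57 in percussion sham (−0.55, adjusted p = 0.00317). P2ry12, the purinergic receptor of surveying microglia, differed by −0.63 (adjusted p = 0.0289), but its call was lost without rotational sham 1 or 3 or any percussion sham array (−0.65 to −0.53). Aif1, the general marker of microglia, differed by 0.00 (adjusted p = 0.987). Without any 1 of the 7 sham arrays the list had 1 or 2 lower calls.

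Mural cell genes of vessels were in part higher in percussion sham. Of 13 mural cell genes 3 were called higher and 0 lower, with a median of 0.40 in the shams and 0.49 between the trauma groups. Myh11, the smooth muscle myosin gene, was −2.08, −2.06 and −2.01 in rotational sham and −0.87, −1.33, −1.16 and −1.44 in percussion sham (0.85, adjusted p = 0.00765), with 1.16 between the trauma groups (adjusted p = 0.00675). Abcc9, a potassium channel subunit of pericytes, differed by 0.61 (adjusted p = 0.0104). Endothelial genes had 2 of 21 called lower and 0 higher, led by the endoglin gene Eng at −1.99, −1.93 and −1.98 against −3.20, −3.05, −3.05 and −2.96 (−1.10, adjusted p = 0.0108), and 1 was called lower without rotational sham 1 or 3. Of 25 myelin genes 4 were called higher and 0 lower, among them Olig1 (0.58, adjusted p = 0.00282) and Enpp6 of newly forming oligodendrocytes (0.84, adjusted p = 0.0101), while the median was 0.03 and ran from −0.16 to 0.16 over the alternatives. Mbp, the myelin basic protein gene, differed by −0.11 (adjusted p = 0.384). The mean centred signal of the list was −0.57 in rotational sham 2 and 0.13 and 0.09 in the other rotational shams. Without rotational sham 2 or percussion sham 1, 2 or 3 the myelin list had 2 higher calls, and without rotational sham 2 also 2 lower ones. Of 23 genes of meninges and matrix 2 were called higher, with a median of 0.25, and the collagen gene Col1a1 differed by 0.03 (adjusted p = 0.965). Ogn, the osteoglycin gene, was −1.68, −1.72 and −1.69 in rotational sham and −0.18, −0.46, 0.02 and −1.09 in percussion sham (1.27, adjusted p = 0.0172), and this call was lost without any 1 rotational sham array (1.26 to 1.28). Without any of these 3 arrays in turn the meninges list had 0 calls, and without percussion sham 1 or 3 it had 1. Without percussion trauma 1 the mural list had 6 higher calls.

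Interferon-stimulated genes were partly higher. Of 23 measured members 5 were called higher and 1 lower, with a median of 0.27, and 1 was called in each direction between the trauma groups. Stat2, a subunit of the interferon-activated transcription factor, was 0.58, 0.55 and 0.59 in rotational sham and 1.37, 1.40, 1.37 and 1.18 in percussion sham (0.75, SE 0.07, adjusted p = 0.000426). Its partner Irf9 was −3.90, −3.75 and −4.02 against −2.82, −3.20, −3.29 and −2.84 (0.85, adjusted p = 0.00167). Between the trauma groups Stat2 differed by 0.53 (adjusted p = 0.00352) and Irf9 by 0.41 (adjusted p = 0.079). Usp18, which restrains interferon signalling, differed by 1.06 (adjusted p = 0.0142), and its call was lost without rotational sham 1 or 3 (0.97 to 1.00). Without rotational sham 1 or 3 the list had 3 higher calls, and without rotational trauma 2 it had 9.

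Inflammatory mediators were called in both directions. Of 25 cytokine and chemokine genes 3 were called higher and 6 lower, and 4 of these 6 entered the fit through rotational sham alone, which favours lower calls. The chemokine gene Ccl3 was above background on all 3 rotational shams and on none of the 4 percussion shams, and was at least 3.05-fold lower in percussion sham (adjusted p = 0.00765). Il1b, the interleukin-1 beta gene, was at least 1.52-fold lower (adjusted p = 0.00888), but not called in the deposited table. Cxcl13, a chemokine gene for B cells, was −4.53, −3.81 and −4.14 against −5.27, −5.83, −5.85 and −6.09 (−1.60, adjusted p = 0.00228). The interleukin-1 alpha gene Il1a was the opposite, at −5.88, −5.15 and −5.60 in rotational sham and −4.52, −4.36, −4.64 and −4.30 in percussion sham (1.09, adjusted p = 0.0108), and at least 3.94-fold higher in percussion than in rotational trauma, where no array was above background (adjusted p = 0.00237). Its sham call was lost with a normexp background correction. Of 18 T and B cell genes 5 were measured. Cd4, which rat macrophages and microglia also express, was at least 3.36-fold lower (adjusted p = 0.000567) and Lck at least 1.62-fold lower (adjusted p = 0.00228), the latter not called with normexp or in the deposited table. Both entered the fit through rotational sham alone. Cd3d, a defining gene of T cells and above background on all 7 sham arrays, differed by −0.04 (adjusted p = 0.843) and was called under none of the 25 alternatives. Neutrophil and monocyte genes had 0 of 6 called. The MHC class II gene RT1-Bb was −2.24, −2.14 and −2.49 against −3.76, −3.37, −2.96 and −4.36 (−1.33, adjusted p = 0.0153), a call lost without rotational sham 1 or 2 (−1.30 to −1.25). Its second probe was opposite, above background on 2 of the 4 percussion shams and on no rotational one (3.39), so the direction of the gene depends on the probe. Without rotational sham 1 the cytokine list had 3 lower calls, and without rotational sham 3 it had 1 higher call.

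Some genes of excitatory synapses were lower in percussion sham. Of 37 glutamate receptor and scaffold genes 10 were called lower and 2 higher, with a median of −0.17, against 2 lower and 1 higher between the trauma groups. The scaffold gene Shank2 was −3.04, −3.33 and −3.16 in rotational sham and −4.05, −3.98, −4.35 and −4.08 in percussion sham (−0.94, adjusted p = 0.0043). Dlg4, which encodes PSD-95, was −2.0, −1.81 and −1.86 against −2.92, −2.65, −2.70 and −2.66 (−0.84, adjusted p = 0.00978). The AMPA receptor subunit gene Gria1 was 0.90, 0.76 and 0.71 against 0.28, 0.26, 0.13 and 0.26 (−0.56, adjusted p = 0.00165), with −0.40 between the trauma groups (adjusted p = 0.0201). None of these 3 overlapped between the shams, nor did Grin2b above, as was so for 2362 of the 2417 genes called lower. The lower calls of the list numbered 7 to 12 without 1 array, while the 2 higher ones numbered 0 without rotational sham 1 or 3 or percussion sham 1 and 1 without rotational sham 2, rotational trauma 3 or percussion sham 2 or 4. Synaptic vesicle genes had 5 of 27 called lower and 0 higher. Snap25, which encodes a protein of the release machinery, differed by −0.19 (adjusted p = 0.305). These were less firm: without rotational sham 1, 2 or 3 the list had 0, 2 or 1 lower calls, without percussion sham 1, 2, 3 or 4 it had 2, 3, 3 or 2, without rotational trauma 3 it had 3, and without percussion trauma 2 it had 8. Axon and cytoskeleton genes had 7 of 30 called lower and 1 higher, and of the lower calls 1, 0 or 1 were counted without rotational sham 1, 2 or 3, 1 without percussion sham 1 and 3 without percussion sham 3 or 4.

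Inhibitory and modulatory receptors were called in both directions. GABA receptor and transport genes had 4 of 21 called lower and 1 higher, Gabbr1, whose sign turned with the mean over probes. Lower were among others the subunit gene Gabra3 (−0.63, adjusted p = 0.0018), which differed by −0.39 between the trauma groups (adjusted p = 0.038). Of 30 receptors for monoamines and acetylcholine 4 were called lower and 2 higher, a lower share of 13.3% beside 14.0% of all genes. Gad1, the gene of a GABA-synthesising enzyme, differed by 0.23 (adjusted p = 0.219). The dopamine receptor gene Drd4 was above background on no percussion sham array and at least 1.77-fold lower (adjusted p = 0.000908), though not called in the deposited table. Htr5b, a serotonin receptor gene, was −7.15, −7.70 and −6.38 in rotational sham and −3.55, −5.09, −5.43 and −3.41 in percussion sham (2.71, adjusted p = 0.0114).

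Among 45 potassium channel genes 11 were called lower and 3 higher. Kcnq3, a subunit of a channel that damps repetitive firing, was 1.00, 1.22 and 1.36 in rotational sham and 2.05, 2.23, 2.18 and 2.15 in percussion sham (0.96, adjusted p = 0.00182), so the groups did not overlap. It also passed between the trauma groups (0.88, adjusted p = 0.00801). A second Kcnq3 probe, above background on every array, gave −0.18 in the shams and −0.12 in the trauma samples, so the direction of the gene depends on the probe. Without rotational sham 1, 2 or 3 the potassium channel list had 6, 6 or 4 lower calls, and without percussion sham 1 or 2 it had 1 higher call. Sodium, calcium and HCN channel genes had 4 of 27 called lower (14.8%, beside 14.0% of all genes) and 0 higher. Scn1a differed by 0.16 (adjusted p = 0.358). The list had 1, 2 or 1 lower without rotational sham 1, 2 or 3 and 2 higher without percussion sham 3.

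Genes of general cell function differed little in size. Of 102 oxidative phosphorylation genes 11 were called lower and 3 higher, with a median of −0.09, of 88 cytosolic ribosomal protein genes 8 lower and 0 higher (−0.11), and of 36 proteasome genes 9 lower and 0 higher (−0.10). These medians lie close to −0.06 over all genes. The shares called lower were 10.8%, 9.09% and 25.0%, beside 14.0% of all genes. Over the alternatives the lower calls ran from 4 to 26, from 3 to 42 and from 1 to 14, each highest with array weights. The ATP synthase gene Atp5f1b differed by −0.59 (adjusted p = 0.00431), Rps7 by −0.48 (adjusted p = 0.00446) and the proteasome gene Psmd11 by −0.54 (adjusted p = 0.00803). Without 1 rotational sham array the 3 lists had 4 or 5, 3 or 4 and 1 to 4 lower calls, and without percussion sham 1 or 4 they had 6, 4 or 5, and 4. Without rotational sham 2 the respiratory list had 1 higher call. In the hypoxia list the collagen prolyl hydroxylase gene P4ha2 differed by 0.83 (adjusted p = 0.0077) and by 0.77 between the trauma groups. Nqo1, a target of the NRF2 pathway, differed by −0.70 (adjusted p = 0.00291) and −0.58.

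Olfactory receptor genes, known from the nasal epithelium, had 12 of 56 called lower and 3 higher. Of the 56, 18 were above background on all 13 arrays. Genes detected in 1 sham group alone mostly entered the fit through rotational sham, which favours lower calls. Or13l2 was −5.66, −5.77 and −5.46 in rotational sham and −2.33, −4.01, −3.79 and −3.74 in percussion sham (2.16, adjusted p = 0.00276) and Or4a80 differed by 1.86 (adjusted p = 0.00317). In the trauma samples they differed by 2.19 and 1.77. Or13p4 was −4.07, −4.09 and −4.08 in rotational sham and −7.36, −7.88, −7.74 and −4.67 in percussion sham (−2.83, adjusted p = 0.00921), and it was above background on 1 of these 4 arrays. It was above background on no percussion trauma array, at least 11.8-fold lower than after rotation (adjusted p = 0.00364). Receptors of this family are near-identical in places, and these signals cannot be assigned to 1 gene with certainty. Without rotational sham 3 the family had 7 lower calls.

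**Figure D5:**
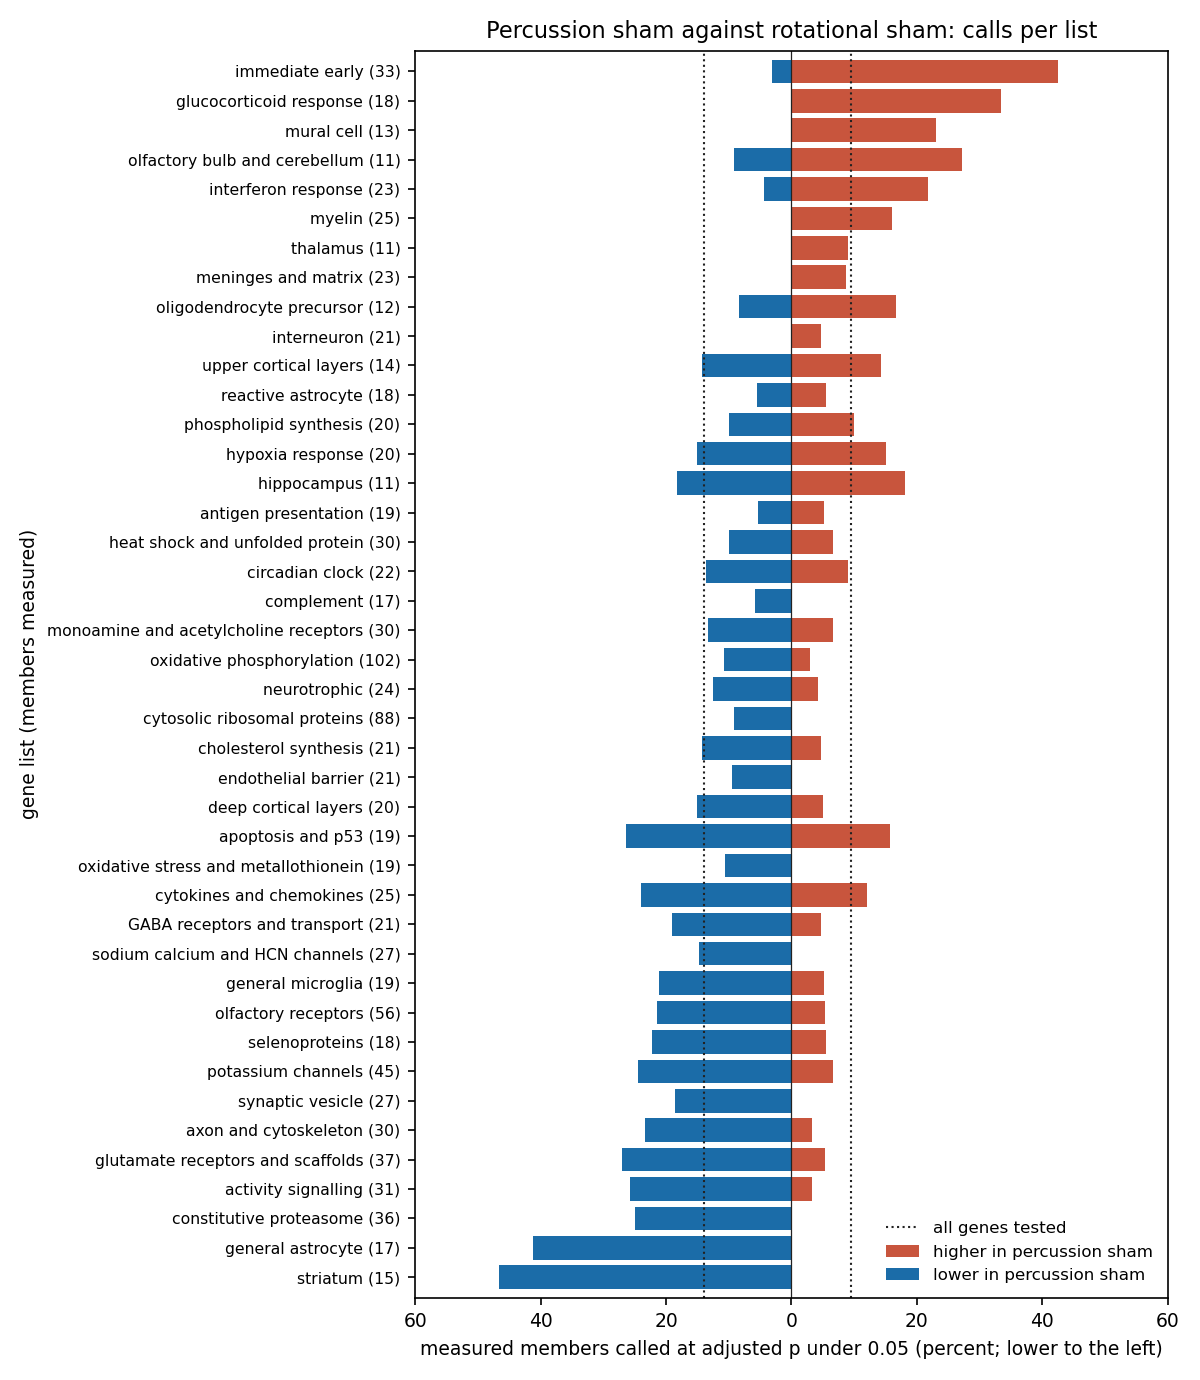
Share of measured members (number in brackets) called, for each gene list with at least 10 of them, higher (red, to the right) or lower (blue, to the left) in percussion sham than in rotational sham, in percent; the dotted lines mark the shares over all 17270 genes, 9.51% higher and 14.0% lower. Immediate early genes have the longest red bar, at 42.4%, and the striatum list the longest blue bar, at 46.7%.

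The remaining genes with the largest differences had varied functions. Higher in percussion sham were Plekha7, an adherens junction gene (at least 8.62-fold, adjusted p = 0.00165), and Lipogenin (at least 5.99-fold, adjusted p = 0.0046), both above background on no rotational sham array and both also called between the trauma groups (at least 4.78-fold and 4.6-fold), where no rotational array was above background. Lipogenin was not called with a normexp background correction. Fam111a differed by 3.14 (adjusted p = 0.049), with −7.02, −7.93 and −4.68 in rotational sham, and 10 of the 13 fits without 1 array lost its call (2.45 to 3.45), including those without rotational sham 1 or 2, rotational trauma 3, any percussion sham or any percussion trauma array. Lower in percussion sham were Qrfprl, a peptide receptor gene (at least 5.22-fold, adjusted p = 0.00666), Slpi, a protease inhibitor gene (at least 2.66-fold, adjusted p = 0.0196) and Nectin4, an adhesion gene (at least 2.61-fold, adjusted p = 0.00167). The prokineticin receptor gene Prokr2 differed by −2.09 (adjusted p = 0.00914) and Dpt, the dermatopontin gene, by −1.77 in both sets of samples. Ccdc77 differed by −2.17, with 1 of 4 percussion shams above background, and was at least 7.98-fold lower in percussion trauma. Qrfprl, Slpi, Nectin4 and Ccdc77 entered the fit through rotational sham alone, which favours lower calls. Akr1b10 was −4.76, −3.57 and −4.21 against −7.22, −7.82, −7.08 and −4.85 (−2.56, adjusted p = 0.0334), a call lost without rotational sham 1, 2 or 3 or percussion sham 1, 2 or 3 (−2.85 to −2.20). The call of Slpi was lost without rotational sham 2 or 3 (−2.16 to −2.12), and Slpi, Nectin4 and Ccdc77 were not called in the deposited table.

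Among the genes of smallest p were also Runx2, a transcription factor gene (1.27, adjusted p = 6.96e-05), Xkr8, a phospholipid scramblase gene (1.14, adjusted p = 0.000264), Morn4 (−0.65, adjusted p = 0.000431) and Ccdc166 (−1.08, adjusted p = 0.000529). All 4 passed in the same direction between the trauma groups, at 0.90, 0.65, −0.26 and −1.01. The 2 other Runx2 probes were above background on none of the 13 arrays.

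Whether the sham difference changed with trauma was tested directly as the difference between the 2 contrasts. By limma 0 of 17270 genes passed (0.00%), with 1498 at an unadjusted p under 0.05 and a smallest adjusted p of 0.0862. The 2 genes at that value were Galns, a lysosomal sulfatase gene, and Hes5, a Notch target. Hes5 was −2.59, −2.71 and −2.73 in rotational sham and −3.29, −3.44, −3.22 and −3.52 in percussion sham (−0.69, adjusted p = 0.00198), and −3.24, −3.09 and −3.18 after rotational trauma and −2.55, −2.92 and −2.87 after percussion trauma (0.39, adjusted p = 0.0596). The order of the models was thus reversed between sham and trauma samples in this gene, with the change itself not passing. Galns differed by at least 1.42-fold in the shams (lower in percussion sham, adjusted p = 0.0104) and by at least 1.60-fold the other way in the trauma samples (adjusted p = 0.00927), and without rotational sham 3 its sham call was lost (−0.45), as it was in the deposited table and with a robust, trended prior. Its direction follows the share of spots above background, which was also reversed, and the part of that share was not tested. The kinase gene Ptk6 was at least 5.90-fold higher in percussion sham (adjusted p = 0.00695) and did not pass between the trauma groups (adjusted p = 0.14), with 1 of 6 trauma arrays above background, and its sham call was lost with a normexp background correction and in the deposited table. The protease gene Ctrl differed by 0.92 (adjusted p = 0.00234) and −0.23. Among these genes Zzef1 (at least 1.76-fold lower, adjusted p = 0.00354) and the olfactory receptor gene Or2v1 (at least 1.80-fold lower, adjusted p = 0.000572) had no percussion sham array above background, and Or2v1 was not called in the deposited table. Leaving out 1 array gave between 0 and 8 genes that passed for this difference, with 8 without rotational sham 1 or rotational trauma 3, 7 without rotational trauma 1 and 2 without rotational sham 3, percussion trauma 1 or percussion sham 3 or 4.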

How the data were processed

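RNA from frontal cortex was measured on 13 Agilent rat arrays in 1 colour, 1 array per sample. The deposited values are intensities of single spots. Per the file headers, they were made with Agilent Feature Extraction 10.5.1.1, whose processed signal is background-subtracted and detrended within each array but not scaled between arrays. The authors also deposited a table of log2 values scaled between arrays, which was used as an alternative. Its 13 columns each matched their own array best, and how they were scaled is not given in the sources used here.

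The log2 of the processed signal minus the array's 75th percentile was used, control spots (4259 per array) were left out, and spots of 1 probe were averaged. Of 30367 probes, 20049 were kept because either sham group had them well above background on all its arrays, and the probe of highest mean stood for each of 17270 genes. Probes were named through their accession (18387), symbol (2466) or synonym (540) in the RefSeq table of GRCr8, and otherwise by the files' own name (8974). Fold bounds, written as "at least N-fold", set the brighter group's mean against the dim group's mean of, per array, the higher of the probe's own value and the lowest signal well above background.

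All 13 arrays were fitted with 1 mean per group by limma 3.58.1 (R 4.3.3) with empirical Bayes moderation (9 residual and 2.26 prior degrees of freedom), and p-values were adjusted by Benjamini-Hochberg over the 17270 genes with a threshold of 0.05. The fit was also run on simulated data with known differences, the outcome of which is not reported here. Adjusted p-values in the report come from this fit, and array measures were compared by exact permutation. Precision is limited by the number of arrays.

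The groups compared, the gene lists and the genes named were chosen with earlier results of these data known. Genes were named by a rule: the 10 per direction of largest difference without overlap, the 6 per direction of smallest p, the 6 per direction called in both sets of samples with the largest smaller difference, the 4 per direction of smallest p for the change between sets, up to 4 called members of each list, a list's defining marker where it was not called, and Arc and Selenoi. Not all list members and defining markers that this rule covers are given in the text. Other genes were chosen after their values were seen: Nr4a1, Nr4a3, Junb, Egr1, Egr2, Dusp1, Dusp5, Dusp6, Trib1, Ier5, Rheb, Jun, Bdnf, Npas2, Dbp, Bmal1, Errfi1, Klf9, Fkbp5, Adora2a, Rgs9, Th, Calb2, Trh, Trdn, Gria1, Slc17a6 and Neurod2. Coordinates of probes come from the array files and are on rn4. The alternatives were other background corrections, scalings, filters and probe rules, the deposited table, a fit of the shams alone, other variance models, array weights, a replicate block, and leaving out each array in turn.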

Additional observations from a re-analysis of the deposited data

Results flagged for a closer look

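Among 237 genes checked, 13 had a percussion sham sample set apart from the other 3 by most of the group's range. Chance gives this in about 5% of groups of 4 samples, so the number flagged is close to what chance alone gives. The genes are listed as a description. Values are log2 signals relative to the array's upper quartile.

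Percussion sham 1 stood apart in 6 genes. It was high for Lipogenin (−2.89), Nat8f1 (−3.72), Or13l2 (−2.33) and Cbln1, a cerebellin gene (−1.90). It was low for Ier5 (2.65) and for the astrocyte water channel gene Aqp4 (3.57).

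Percussion sham 3 was high for Selenoi (2.30), the gene with the smallest p of the comparison, and low for Gria1 (0.13). For Htr1a, a serotonin receptor gene, it was the highest of its group at −5.65. Percussion sham 2 was the highest for Car8 at −0.84.

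Percussion sham 4 stood apart for 3 genes. For Or13p4 it was −4.67, near the rotational shams, while the other 3 percussion shams were at −7.36 or below. It was the highest for Nectin4 at −7.41, although no percussion sham array was above background there, and, for Stat2, 1.18, the lowest of its group.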

How the results depend on the processing

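The number of sham calls changed with the setting, and without a filter on dim probes so did their balance. That setting gave 7620 calls of 26239 genes tested, 5190 of them higher, with a median over all genes of 0.0587 in place of −0.0645, the trauma contrast 2368 (1472 lower) and the change between the contrasts 3781. With array weights the sham calls numbered 7519 (2706 higher and 4813 lower). The trauma contrast had 506 higher calls with a normexp background correction. Leaving out 1 array gave 1832 to 4547 sham calls (823 to 1728 higher, 1009 to 2819 lower), 343 to 1630 trauma calls (261 to 1199 higher, 82 to 463 lower), 295 to 981 genes called in both, 0 to 8 for the change between the contrasts, and a clock median of −0.052 to 0.0056. The median of the clock list was 0.0154 with quantile normalisation and 0.0132 in the deposited table. List medians changed sign for reactive astrocyte (−0.108 to 0.0203) and complement genes (−0.209 to 0.00591) when all 13 arrays had to be above background, and for T and B cell (−0.693 to 0.00703) and neutrophil and monocyte genes (−0.302 to 0.0443) without a filter. With the mean over probes Plekhh1 was −0.063, Gabbr1 −0.243, Ntrk2 0.641 and Rps16 0.794, and with normexp Pcp2 was −0.048. The cause of these changes was not tested. For probes not above background in 1 group the arrays give only bounds.

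With the replicate number as a block there were 3053 sham calls (1372 higher and 1681 lower), among them 68.1% of the 4060. The numbers did not pair the samples: same-numbered shams correlated in their deviations at −0.079 to 0.070, and 1 of 3 correlated best with its own number.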
